A study of Mus musculus with 6 samples.

Results

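Cyclins and cyclin-dependent kinases are described here for mouse keratinocytes in culture. The 10 genes were taken by symbol from the 24982 genes listed for each library: the D-type cyclins *Ccnd1*, *Ccnd2* and *Ccnd3*, the E-type cyclins *Ccne1* and *Ccne2*, the cyclins *Ccna2* and *Ccnb1*, and the kinases *Cdk1*, *Cdk2* and *Cdk6*. All 10 were found, and all 10 passed the filter on low values, as did 12450 genes of the whole list. RNA-seq was done on 2 keratinocyte lines from neonatal skin of C57BL/6 mice, with 3 libraries of each line and no treatment. KSFM-Ca2+ cells were derived and grown in the low calcium medium of that name. DKSFM cells descend from the KSFM-Ca2+ cells that survived a move into the defined medium DKSFM, so that the line and its medium changed together and cannot be told apart. What a replicate was is not stated in the sources used here, so p-values measure only the spread between these libraries, which may be technical. The word "combined", which the sources do not explain, marks the data of KSFM-Ca2+ replicate 3 and of the 3 DKSFM replicates. The comparison asks how the transcripts of each phase of the cell cycle differ between the 2 lines.

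A cyclin-dependent kinase is active when bound to a cyclin, and the cyclins come and go as the cycle advances. In G1 the D-type cyclins bind Cdk4 or Cdk6 and begin the phosphorylation of the retinoblastoma protein, which holds E2F transcription factors in check. Cyclin E with Cdk2 takes the cell into S phase, cyclin A acts in S and G2, and cyclin B with Cdk1 starts mitosis. In the epidermis the dividing keratinocytes lie in the basal layer, and they leave the cycle as they differentiate.

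The values are the mean read coverage per base of each gene, which takes gene length into account. How it was computed for each gene is not stated in the sources used here. Shares, ratios and orders between genes are therefore those of coverage and may differ from those of transcripts. Summed over genes, the listed coverage was 1601676, 1238411 and 1057750 in KSFM-Ca2+ replicates 1 to 3 and 1174348, 1239438 and 1170675 in DKSFM replicates 1 to 3. The values below were scaled between libraries and are called normalized coverage. They come from bulk RNA, in which fewer cycling cells and less RNA per cell cannot be told apart.

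The keratinocyte label was checked first. All 6 keratinocyte markers were present in every library, and their summed normalized coverage was 18915, 19320 and 18968 in the KSFM-Ca2+ replicates and 45163, 41223 and 45551 in the DKSFM replicates. The most abundant was *Krt14*, a keratin of basal cells, at a mean of 12088 in KSFM-Ca2+ and 30001 in DKSFM. At the threshold used throughout, a limma adjusted p under 0.01, 5 of the 6 were higher in DKSFM, as were 35.5% of all tested genes, and *Cdh3* had means of 146 and 139.

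Markers of other skin cell types were listed at 0 or were low beside those of keratinocytes. Of 8 fibroblast markers, 7 were listed at 0 in all 6 libraries, the collagen genes *Col1a1*, *Col1a2* and *Col3a1* among them. Their sum, all of it *Pdgfra*, was 1.15, 0.898 and 1.31 in KSFM-Ca2+ and 2.36, 2.12 and 2.25 in DKSFM. The 6 melanocyte markers summed to 4.15, 3.99 and 4.65 in KSFM-Ca2+ and 17.5, 18.9 and 18.5 in DKSFM, led by *Mitf*, with the pigment genes *Dct* and *Tyr* listed at 0 throughout. The 6 leukocyte markers summed to 11.0, 11.3 and 12.7 in KSFM-Ca2+ and 13.7, 19.1 and 20.8 in DKSFM. This was almost wholly *Cd68*, a lysosomal protein, while *Cd3e* and *Tyrobp* were listed at 0. The 4 endothelial markers summed to 2.85, 3.19 and 3.34 in KSFM-Ca2+ and 8.36, 8.37 and 7.49 in DKSFM, led by *Pecam1*, with *Cdh5* at 0. Few genes of these 4 lists passed the filter on low values: 1 fibroblast, 2 melanocyte, 1 leukocyte and 1 endothelial marker were tested. In each list 1 tested gene (*Pdgfra*, *Mitf*, *Cd68* and *Pecam1*) was higher in DKSFM and none was lower. Among all tested genes 35.5% were higher and 37.0% lower.

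Between the lines 7 of the 10 genes were lower in DKSFM and 2 were higher. Over all 12450 tested genes, 37.0% were lower and 35.5% were higher at the same threshold, so a difference as such was common. With a 2-fold change required as well, 2 of the 10 were lower and 2 were higher, beside 10.5% and 13.3% of all tested genes. The 3 libraries of 1 line lay wholly below or above those of the other for 9 of the 10 genes, beside 83.2% of all tested genes. DKSFM was the lower line for 7 of these (42.0% of all tested genes) and the higher line for 2 (41.2%). The median log2 fold change, DKSFM over KSFM-Ca2+, was -0.50 over the 10 genes and 0.0 over all tested genes. Of the genes of G1, *Ccnd1* was lower, *Ccnd2* and *Ccnd3* were higher and *Cdk6* did not pass, and each gene of the later phases was lower in DKSFM.

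**Figure D1:**
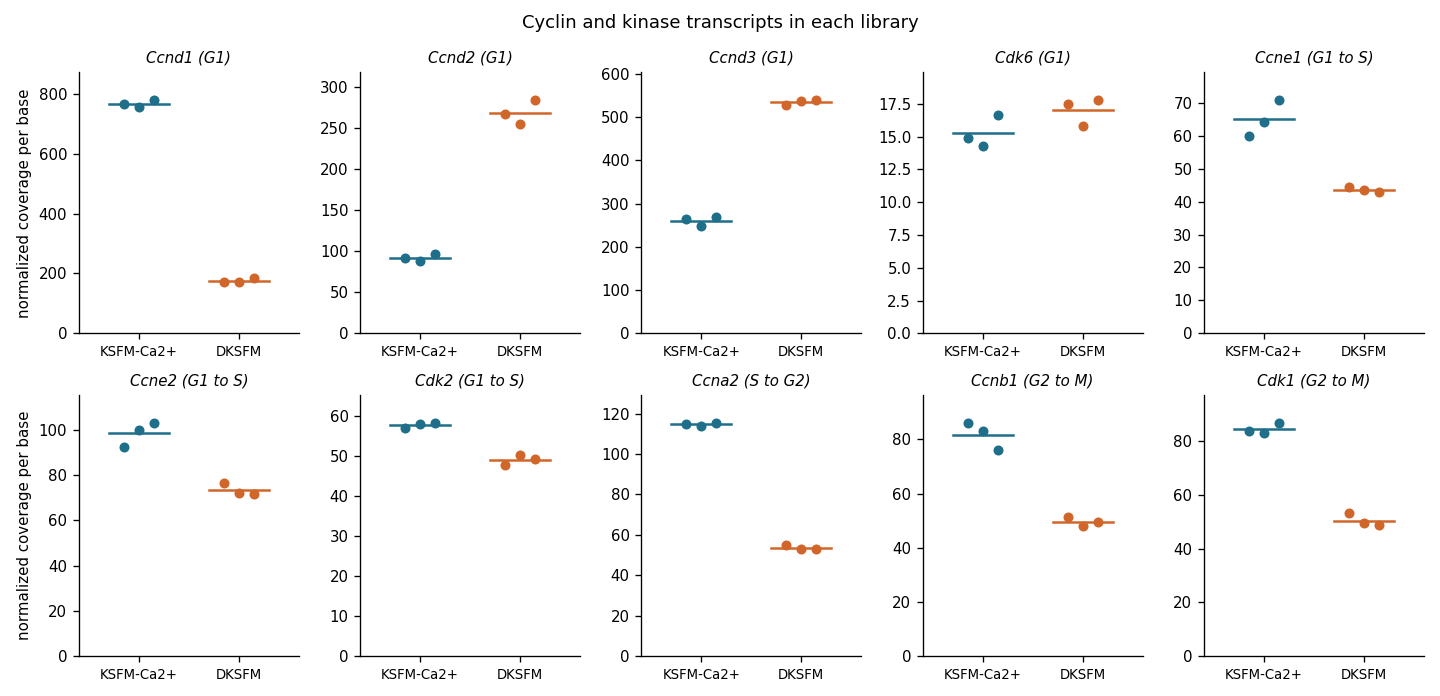
Normalized coverage per base of each of the 10 genes, 1 point per library, with the mean of each line as a bar; every axis starts at 0. *Ccnd1* lies between 757 and 778 in KSFM-Ca2+ and between 172 and 183 in DKSFM, and *Cdk6* is the gene whose libraries overlap between the lines.

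The D-type cyclins, the first of the cycle, changed places. *Ccnd1* (mm10, chr7:144929931-144939925, minus strand), the cyclin that answers to growth factors in many epithelia, had a normalized coverage of 765, 757 and 778 in the KSFM-Ca2+ replicates and 172, 173 and 183 in the DKSFM replicates. The 3 KSFM-Ca2+ libraries were all far above the 3 DKSFM libraries. The mean was 767 ± 10.7 (SD, n = 3) in KSFM-Ca2+ and 176 ± 6.23 (SD, n = 3) in DKSFM, so that DKSFM held 23.0% of the KSFM-Ca2+ level. On the log2 scale *Ccnd1* fell by 2.12 (SE 0.032, limma adjusted p = 1.13e-09).

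*Ccnd2* (chr6:127125162-127152193, minus strand) went the other way. Its normalized coverage was 91.7, 88.1 and 97.0 in KSFM-Ca2+ and 266, 255 and 283 in DKSFM, with no overlap. The means of 92.3 ± 4.43 and 268 ± 14.2 (SD, n = 3 each) differed 2.91-fold, a log2 fold change of 1.54 (SE 0.049, limma adjusted p = 3.95e-08). *Ccnd3* (chr17:47505051-47599691, plus strand) was higher in DKSFM too. It had 264, 247 and 268 in KSFM-Ca2+ and 528, 536 and 539 in DKSFM. The means were 260.0 ± 11.1 and 534 ± 5.78 (SD, n = 3 each), a log2 fold change of 1.04 (SE 0.035, limma adjusted p = 5.06e-08). *Ccnd3* stood just past 2-fold, and with the libraries marked as combined alone its log2 fold change was 0.99.

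Within the D-type family the shares do not depend on the scaling between libraries. *Ccnd1* held 68.2%, 69.3% and 68.0% of the summed D-type coverage in the KSFM-Ca2+ replicates and 17.8%, 17.9% and 18.2% in the DKSFM replicates. By coverage it was thus the main D-type cyclin in every KSFM-Ca2+ library and the least in every DKSFM library. *Ccnd3* took the main place in DKSFM, with 54.6%, 55.6% and 53.6% there and 23.6%, 22.6% and 23.5% in KSFM-Ca2+. *Ccnd2* held 8.18%, 8.07% and 8.48% in KSFM-Ca2+ and 27.6%, 26.5% and 28.2% in DKSFM. The mean share changed by -50.5 percentage points for *Ccnd1*, 19.2 for *Ccnd2* and 31.4 for *Ccnd3*. A two-sided exact permutation test gave p = 0.10 for each of the 3 shares, the smallest p that 3 libraries against 3 allow.

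The family as a whole changed far less than its members. The summed normalized coverage of the 3 D-type cyclins was 1121, 1093 and 1144 in KSFM-Ca2+ and 966, 965 and 1006 in DKSFM. The means were 1119 ± 25.5 and 979 ± 23.2 (SD, n = 3 each), a log2 ratio of -0.19, and the libraries of the lines did not overlap (exact permutation p = 0.10).

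**Figure D2:**
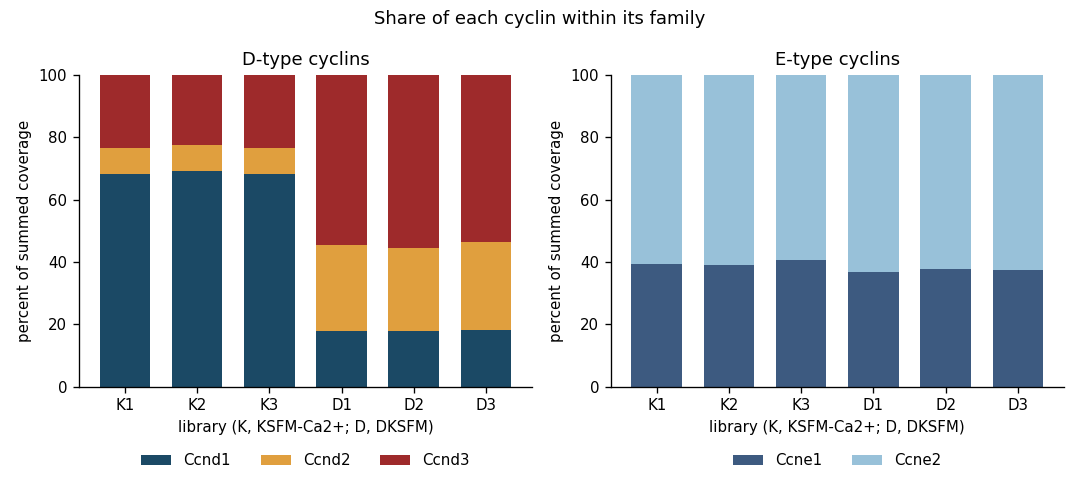
Percent of the summed coverage of the D-type cyclins (left) and of the E-type cyclins (right) held by each gene in each library, as stacked bars that add up to 100 percent. *Ccnd1* goes from a mean of 68.5% in KSFM-Ca2+ to 18.0% in DKSFM, while the *Ccne1* share stays between 36.7% and 40.7% in all 6 libraries.

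The kinases that the D-type cyclins bind did not pass the test. *Cdk6* (chr5:3341485-3531008, plus strand) had 14.9, 14.3 and 16.7 in KSFM-Ca2+ and 17.5, 15.8 and 17.8 in DKSFM, and the libraries overlapped. Its log2 fold change was 0.16, with a 95% interval from -0.02 to 0.33 (limma adjusted p = 0.0887). It came to 0.08 with quantile normalization (limma adjusted p = 0.386). Over all 16 alternatives it ran from 0.03 with the libraries marked as combined alone (limma adjusted p = 0.799) to 0.22 without KSFM-Ca2+ replicate 3 (limma adjusted p = 0.0243), and it passed in none. *Cdk4*, the other partner of the D-type cyclins, had means of 521 ± 20.8 and 516 ± 14.0 (SD, n = 3 each). Its log2 fold change of -0.01 (95% interval -0.10 to 0.07, limma adjusted p = 0.746) had no stable sign and came to 0.01 with quantile normalization. *Cdk4* exceeded *Cdk6* by far in each library: the ratio of their coverage was 34.8, 35.1 and 32.5 in KSFM-Ca2+ and 30.3, 32.6 and 28.2 in DKSFM. The 3 D-type cyclins together had 2.10, 2.12 and 2.05 times the coverage of *Cdk4* and *Cdk6* together in KSFM-Ca2+, and 1.77, 1.81 and 1.94 times in DKSFM. The ranges of this ratio did not overlap (exact permutation p = 0.10).

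The genes that act from G1 into S phase were lower in DKSFM, by less than 2-fold. *Ccne1* (chr7:38097984-38107534, minus strand) had 60.0, 64.3 and 70.8 in KSFM-Ca2+ and 44.5, 43.6 and 42.8 in DKSFM. All 3 DKSFM libraries were below the lowest KSFM-Ca2+ library, and *Ccne1* fell by 0.57 on the log2 scale (SE 0.059, limma adjusted p = 3.37e-05). *Ccne2* (chr4:11191351-11204779, plus strand) had 92.4, 100.02 and 103 in KSFM-Ca2+ and 76.7, 72.3 and 71.7 in DKSFM, again with no overlap, and fell by 0.42 (SE 0.049, limma adjusted p = 6.81e-05). The proportion of the E-type cyclins to each other changed little, though the libraries of the lines did not overlap. *Ccne1* held 39.4%, 39.1% and 40.7% of their summed coverage in KSFM-Ca2+ and 36.7%, 37.6% and 37.4% in DKSFM, a difference of -2.51 percentage points (exact permutation p = 0.10). Their sum went from 163.5 ± 10.7 to 117 ± 3.54 (SD, n = 3 each), a log2 ratio of -0.48.

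*Cdk2* (chr10:128697939-128705031, minus strand), the kinase partner of cyclins E and A, changed least among the 9 genes that passed. It had 56.9, 58.0 and 58.1 in KSFM-Ca2+ and 47.8, 50.2 and 49.1 in DKSFM. DKSFM held 85.0% of the KSFM-Ca2+ level, and the difference was still larger than the spread of either line (log2 fold change -0.23, SE 0.035, limma adjusted p = 0.000307).

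*Ccna2* (chr3:36564865-36572150, minus strand), the cyclin of S phase and G2, had the largest fall after *Ccnd1* among the 10 genes. Its normalized coverage was 115, 114 and 115 in KSFM-Ca2+ and 54.9, 53.3 and 52.9 in DKSFM, so the libraries within a line were close to each other and the lines far apart. The means were 115 ± 0.871 and 53.7 ± 1.06 (SD, n = 3 each), and *Ccna2* fell by 1.09 on the log2 scale (SE 0.030, limma adjusted p = 1.94e-08). With *Cdk2* lower by much less, the coverage of *Ccna2* per coverage of *Cdk2* was 2.02, 1.96 and 1.98 in KSFM-Ca2+ and 1.15, 1.06 and 1.08 in DKSFM (exact permutation p = 0.10).

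The G2 to M genes *Ccnb1* and *Cdk1*, whose proteins form the kinase that starts mitosis, were both lower in DKSFM. *Ccnb1* (chr13:100778650-100786570, minus strand) had 86.0, 83.2 and 76.1 in KSFM-Ca2+ and 51.2, 47.9 and 49.7 in DKSFM. *Cdk1* (chr10:69335146-69352938, minus strand) had 83.9, 83.0 and 86.6 in KSFM-Ca2+ and 53.0, 49.3 and 48.6 in DKSFM. Neither gene overlapped between the lines. *Ccnb1* fell by 0.72 on the log2 scale (SE 0.052, limma adjusted p = 3.65e-06) and *Cdk1* fell by 0.75 (SE 0.042, limma adjusted p = 8.96e-07). Their ratio, *Ccnb1* coverage over *Cdk1* coverage, was 1.03, 1.002 and 0.879 in KSFM-Ca2+ and 0.966, 0.971 and 1.02 in DKSFM, and overlapped between the lines (exact permutation p = 0.90). The mean ratio differed by 0.017, with no stable sign when 1 library was left out (-0.028 to 0.046), and by 0.107 with the libraries marked as combined alone.

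**Figure D3:**
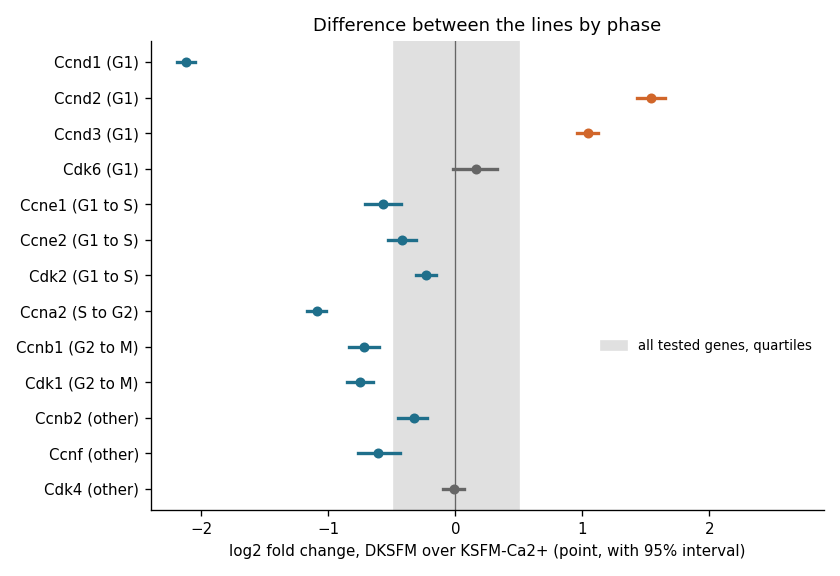
Log2 fold change, DKSFM over KSFM-Ca2+, with its 95% interval for the 10 genes by phase and for 3 further cell cycle cyclins and kinases; blue is lower and orange higher in DKSFM at an adjusted p under 0.01, and grey did not pass. The shaded band spans the quartiles of all tested genes, -0.48 to 0.50, and *Ccnd1* at -2.12 lies farthest from it.

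The stretches before the starts of *Ccnb1* and *Cdk1*, both lower in DKSFM, and of *Ccnd3*, which was higher, are shown as examples. They were picked by these directions, so their motifs are no test of lower against higher genes. RefSeq promoter windows (GRCm38.p6, from 250 bases before to 50 bases after the start) matched 6 of the 10 genes, with 7 windows, since *Ccnd3* has 2 starts. *Ccnd1*, *Ccnd2*, *Ccne2* and *Ccna2* had no entry, so *Ccnd3* was the only higher gene with a window. Short motifs known from cell cycle promoters were searched on both strands: CCAAT, bound by NF-Y, TTTGAA and its variant TTTAAA, known as the cell cycle genes homology region to which MuvB complexes bind, and TTTNNCGC, part of many E2F sites. TTTAAA reads the same on both strands, and the motifs that begin with TTT share those letters, so matches can overlap. The stretches are 150 bases long, read 5′ to 3′ on the strand of the gene, and capitals mark each match to a motif, in either orientation. They are, in order, chr10:69352913-69353062 (minus), chr13:100786541-100786690 (minus), chr17:47504901-47505050 (plus) and chr17:47593316-47593465 (plus).
Cdk1: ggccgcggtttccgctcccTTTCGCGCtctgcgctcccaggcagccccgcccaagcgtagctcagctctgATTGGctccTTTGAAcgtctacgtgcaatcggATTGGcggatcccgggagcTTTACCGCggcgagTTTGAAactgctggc
Ccnb1: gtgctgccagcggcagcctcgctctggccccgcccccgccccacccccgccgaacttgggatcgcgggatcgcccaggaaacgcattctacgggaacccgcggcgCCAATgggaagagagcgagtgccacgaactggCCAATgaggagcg
Ccnd3 upstream start: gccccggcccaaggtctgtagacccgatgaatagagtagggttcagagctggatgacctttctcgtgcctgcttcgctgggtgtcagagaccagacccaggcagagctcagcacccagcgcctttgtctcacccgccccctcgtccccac
Ccnd3 downstream start: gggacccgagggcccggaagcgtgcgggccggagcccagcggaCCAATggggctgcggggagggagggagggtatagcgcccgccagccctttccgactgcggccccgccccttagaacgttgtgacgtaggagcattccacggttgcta

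The stretches of *Cdk1* and of the upstream *Ccnd3* start end 1 base before the start, that of the downstream *Ccnd3* start ends 2 bases before it, and that of *Ccnb1* ends 55 bases before it. The last 26 bases of the *Cdk1* stretch and the last 30 of the *Ccnb1* stretch lie in an exon of a longer GENCODE transcript, and the rest of both lies upstream of the gene. The upstream *Ccnd3* stretch lies before the gene. The downstream one lies within the gene, outside annotated exons except for its last 30 bases. In its whole window *Cdk1* had 3 matches to CCAAT, 2 to TTTGAA and 2 to TTTNNCGC. *Ccnb1* had 2 matches to CCAAT and 1 to TTTAAA, the latter starting 42 bases before the start and so outside the printed stretch. *Cdk2* had 1 match to CCAAT and 1 to TTTNNCGC, *Ccne1* had 1 to TTTAAA, and *Cdk6* had 1 to TTTNNCGC. The upstream *Ccnd3* window held none of the 4 motifs, and the downstream window held 1 CCAAT. Among all 32851 windows of this length, 37.4% held CCAAT, 17.9% TTTGAA, 13.2% TTTAAA and 5.17% TTTNNCGC. Of the 12321 windows of tested genes, 4685 held CCAAT (38.0%), 1480 TTTGAA, 1119 TTTAAA (9.08%) and 1036 TTTNNCGC (8.41%). A match describes the letters of the window and was not tested for any effect.

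The order of the levels also differed between the lines. Genes were ordered within a line by coverage per base, with the limit given above for comparisons between genes. In KSFM-Ca2+ the order from the highest mean was *Ccnd1*, *Ccnd3*, *Ccna2*, *Ccne2*, *Ccnd2*, *Cdk1*, *Ccnb1*, *Ccne1*, *Cdk2* and *Cdk6*. The libraries of *Ccne2* and *Ccnd2* overlapped, as did those of *Cdk1* and *Ccnb1*, so these neighbours had no clear order. In DKSFM the order was *Ccnd3*, *Ccnd2*, *Ccnd1*, *Ccne2*, *Ccna2*, *Cdk1*, *Ccnb1*, *Cdk2*, *Ccne1* and *Cdk6*, and the libraries of neighbours from *Ccna2* to *Cdk2* overlapped. *Ccna2* went from rank 3 to rank 5 and *Ccnd2* from rank 5 to rank 2, while *Cdk6* was lowest in both lines.

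Of the other cell cycle cyclins and kinases, 3 of 5 were tested. *Ccnb2*, a second mitotic B-type cyclin, was lower in DKSFM, with means of 71.0 ± 4.72 and 56.3 ± 0.989 (SD, n = 3 each; log2 fold change -0.33). *Ccnf*, a cyclin that serves as the substrate receptor of a ubiquitin ligase, was lower as well, at 48.9 ± 1.81 and 32.1 ± 3.18 (SD, n = 3 each; log2 fold change -0.61). *Ccna1* and *Ccnb3*, cyclins known from germ cells, were listed at 0 in all 6 libraries. Together with *Cdk4* above, these make up the list.

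The genes that switch the kinases on and off are given by list, and the share of all tested genes stands beside each count. Among 10 enzymes and subunits that act on the kinases, 7 were lower in DKSFM (37.0% of all tested genes) and 2 higher (35.5%), and the median log2 fold change was -0.42. The largest fall was that of *Cdc25c*, a phosphatase that activates Cdk1 (27.1 ± 2.53 and 14.8 ± 0.373, SD, n = 3 each; log2 fold change -0.87, limma adjusted p = 7.72e-06). *Cdc25b*, a related phosphatase, had the largest rise (99.5 ± 7.52 and 129 ± 1.26; log2 fold change 0.37). *Wee1* and *Pkmyt1*, kinases with the opposite action on Cdk1, were among the 7 lower genes.

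Of the 6 tested kinase inhibitors, 5 were higher in DKSFM (35.5% of all tested genes) and 1 lower (37.0%), with a median of 0.85. *Cdkn2a* rose most, from 39.4 ± 1.45 to 197 ± 5.70 (SD, n = 3 each; log2 fold change 2.32, SE 0.039, limma adjusted p = 1.67e-09). This locus encodes an inhibitor of Cdk4 and Cdk6 and, in another reading frame, the p53 activator Arf, and a value per gene does not separate them. *Cdkn1b*, which binds cyclin E and cyclin A complexes, was 2.09-fold higher, and *Cdkn2d* was the 1 gene that was lower (log2 fold change -0.30). *Cdkn1c* was too low to be tested.

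Among 13 genes of the pocket proteins, E2F factors and their partners, 7 were lower (37.0% of all tested genes) and 2 higher (35.5%), with a median of -0.32. *E2f7*, a repressor, had the largest fall (16.8 ± 0.545 and 7.32 ± 0.402, SD, n = 3 each; log2 fold change -1.19), and *Rbl1*, the pocket protein p107, held 49.4% of its KSFM-Ca2+ level. Of the 2 higher genes, *E2f2* had listed values of 1.2, 0.4 and 0.4 in KSFM-Ca2+ and 8.6, 9.1 and 10.2 in DKSFM (log2 fold change 3.89). It passed the filter on low values through DKSFM alone, where it is high, so its place in the count carries no weight. The values of KSFM-Ca2+ replicates 2 and 3 are only a few steps of 0.1, to which coverage was rounded, and the log2 fold change was 2.76 with a pseudocount of 1. Of the 7 genes of MuvB, B-Myb and FoxM1, 5 were lower (37.0% of all tested genes) and 1 higher (35.5%), with a median of -0.37. *Lin9*, a MuvB subunit, and *Mybl2*, which encodes B-Myb, had the largest falls, with the same log2 fold change of -0.83, and *Lin37*, another subunit, was higher (20.5 ± 0.778 and 52.2 ± 1.37, SD, n = 3 each; log2 fold change 1.34).

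The 3 remaining lists had medians near that of all tested genes. Of 12 genes of cyclin degradation, 3 were lower (37.0% of all tested genes) and 3 higher (35.5%), with a median of -0.01 that had no stable sign (-0.079 to 0.047 over the alternatives). The extremes were *Cdc27*, a subunit of the anaphase promoting complex (log2 fold change -0.64), and *Cul1*, the scaffold of SCF ligases (0.63). Of 13 transcriptional cyclins and kinases, 5 were lower (37.0% of all tested genes) and 2 higher (35.5%). The median of this list was -0.04 (-0.081 to -0.017 over the alternatives), with *Cdk10* (-0.79) and *Cdk19* (1.45) at the ends. Of 16 atypical cyclins and kinases 12 were tested, of which 6 were lower (37.0% of all tested genes) and 4 higher (35.5%), with a median of -0.11 (-0.207 to -0.006 over the alternatives). *Ccng2*, a cyclin linked to cell cycle exit, was higher (log2 fold change 1.73), and *Cdk14* was counted as lower (log2 fold change -2.41), with listed values of 2.0, 1.3 and 1.0 in KSFM-Ca2+ and 0.2, 0.1 and 0.2 in DKSFM, close to the rounding step. It passed the filter on low values through KSFM-Ca2+ alone, so its place in the count carries no weight. With a pseudocount of 1 its log2 fold change was -0.99.

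**Figure D4:**
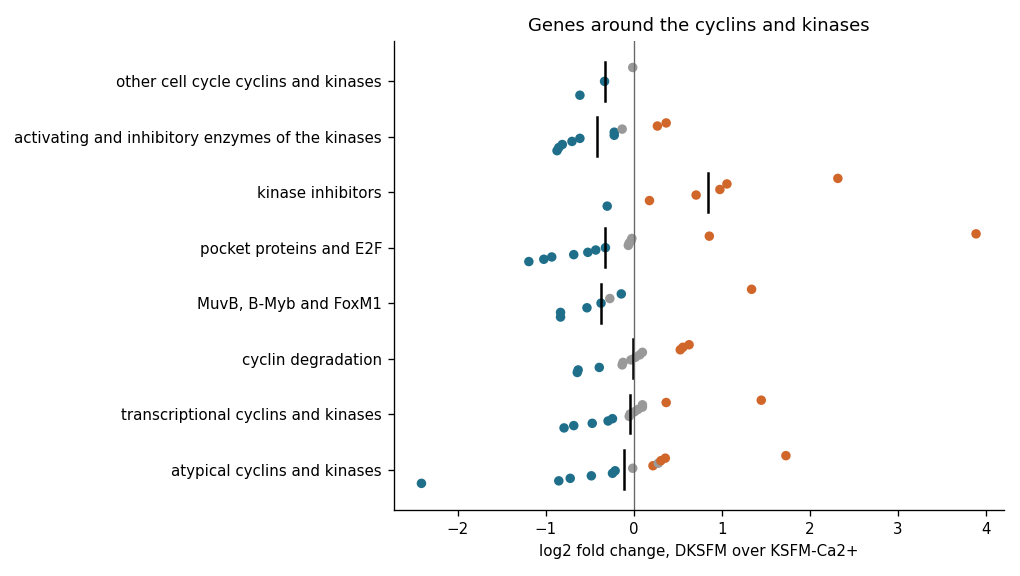
Log2 fold change, DKSFM over KSFM-Ca2+, of each tested gene in the 8 lists, with the median of each list as a black bar; blue is lower and orange higher in DKSFM at an adjusted p under 0.01, and grey did not pass. The kinase inhibitors have a median of 0.85, and the enzymes that act on the kinases one of -0.42.

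The genes most like each cyclin or kinase over the 6 libraries were found by the root mean square difference between centred log2 profiles. The libraries of a line were close to each other, so nearness mainly restates a like fold change between the lines. Shared regulation was not tested. *Ccna2* (log2 fold change -1.09) was nearest to *Nuf2*, a kinetochore gene (difference 0.015, log2 fold change -1.10). Next came *B3gat3* and *Mettl9* (-1.07 each). *Ccnb1* was nearest to *Ptpn4*, *Spdl1* and *Tnpo1*, and *Cdk1* to *Rad9a*, *Hnrnpa3* and *Tpr*. *Ccnd1* was nearest to *Ercc1* (0.033), *Foxc2* and *Unc13b*, *Ccnd2* to *Slc25a44* (0.029), *Eps8l1* and *Lgals3*, and *Ccnd3* to *Tmem167b* (0.026), *Emp1* and *Ssx2ip*. *Ccne1* was nearest to *Ivns1abp*, *Ufm1* and *Siah1b*, and *Ccne2* to *Trmt5*, *Basp1* and *Nle1*. *Cdk2* was nearest to the cyclin G gene *Ccng1* (0.009), *Actr3* and *Stx12*, and *Cdk6* to *Ampd2*, *Ehd1* and *Ddx56*. None of the 10 genes was among the 3 nearest of another. With 12450 tested genes to pick from, this says little about whether the 10 vary together.

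The chromosomal neighbours of each gene were read from the same fit, as the tested genes within 10 Mb on either side. Around *Ccnd1* the median log2 fold change of 90 neighbours was -0.36, around *Ccnb1* that of 81 was -0.29, and around *Ccna2* that of 51 was -0.16. These 3 genes, with neighbours whose median was below 0, fell by more than that median. *Ccne1*, on the same chromosome as *Ccnd1*, lay among 228 neighbours with a median of 0.57 and was itself lower. Of these neighbours 64.9% were higher and 7.02% lower, beside 35.5% and 37.0% of all tested genes. *Ccne2* (46 neighbours, median 0.28), *Cdk1* (106 neighbours, 0.22) and *Cdk2* (96 neighbours, 0.31) were also lower among neighbours with a median above 0. *Ccnd2* (125 neighbours, 0.21) and *Ccnd3* (127 neighbours, 0.18) were higher, by more than these medians. Around *Ccnd2* 52.8% of neighbours were higher and 21.6% lower, and around *Ccnd3* 48.0% and 26.8%. The shares of all tested genes were 35.5% and 37.0%. Around *Cdk6* the median of 32 neighbours was -0.10, with no stable sign (0.005 without KSFM-Ca2+ replicate 1 and 0.03 with the libraries marked as combined alone). The median also moved around *Ccna2* with quantile normalization (-0.279), around *Cdk1* with a filter on every library (0.123) and around *Ccnd2* with the libraries marked as combined alone (0.335). The part of the neighbourhood in these differences was not tested.

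**Figure D5:**
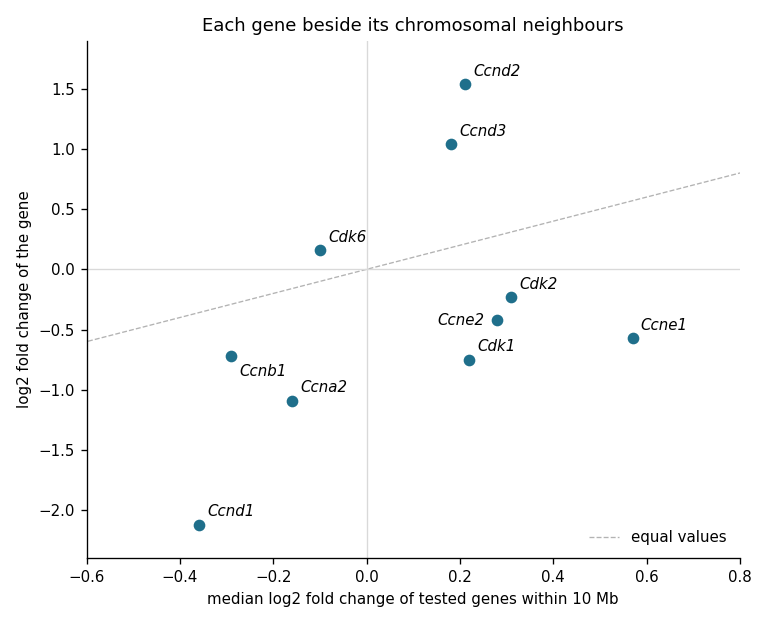
Log2 fold change of each of the 10 genes (vertical axis) against the median log2 fold change of the tested genes within 10 Mb of it (horizontal axis), DKSFM over KSFM-Ca2+, with a dashed line where the values are equal. *Ccne1* lies farthest right, at a neighbour median of 0.57, and itself stands at -0.57.

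Some of the genes overlap a gene on the opposite strand. The libraries were directional, and how the coverage of shared bases was given to each gene is not stated in the sources used here. *Ccna2* overlaps *Exosc9* (means of 73.9 in KSFM-Ca2+ and 51.1 in DKSFM), *Ccnd3* overlaps *Bysl* (39.6 and 39.0) and *Ccne2* overlaps *Ints8* (31.3 and 32.7). *Ccnd2* overlaps *9330179D12Rik* (2.18 and 1.13) and *Cdk2* overlaps *Pmel* (0.599 and 0.347).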

How the data were processed

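The authors sequenced poly(A) RNA of the 2 lines and, per the submitters' processing notes, used bcl2fastq, STAR with mm10 and DESeq2. The authors deposited a signal for each gene, its mean read coverage per base to 1 decimal, with no scaling between libraries. Coverage is not a count, so DESeq2 was not used here. Coverage was scaled by a trimmed mean of M values (trims of 30% and 5%, factors 0.991 to 1.01), and genes with at least 0.5 in at least 3 libraries were fitted as log2(normalized coverage + 0.1) with limma 3.58.1 in R 4.3.3, with an intensity trend. The Benjamini-Hochberg adjustment covered the 12450 genes fitted. A fold change on this scale understates the change of low genes. Shares, sums and ratios were compared by two-sided exact permutation tests, and the sums, ratios and neighbourhoods were chosen after values were seen. The 10 genes and the lists were chosen with earlier results of these data known. Genes named from a list are those with the largest change in each direction past the threshold, and *Wee1*, *Pkmyt1*, *Cdkn1b* and *Rbl1* were chosen after their values were seen. Gene positions came from GENCODE M21. Python 3.11.15 and matplotlib 3.10.9 were used. Other scalings, filters and pseudocounts, a fit without the trend, a replicate block and fewer libraries were tried.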

Additional observations from a re-analysis of the deposited data

How the results depend on the processing

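The 7 lower and 2 higher genes among the 10 were counted alike under all 16 alternatives. With the combined libraries alone, which leave a single KSFM-Ca2+ library assumed to vary like the others, 1 of the 10 was 2-fold higher in place of 2, since *Ccnd3* came to a log2 fold change of 0.99, and the *Ccne1* share differed by -3.49 percentage points. Leaving out 1 library, the share differences ran from -50.8 to -50.1 (*Ccnd1*), 18.8 to 19.6 (*Ccnd2*), 30.9 to 31.9 (*Ccnd3*) and -2.82 to -2.02 (*Ccne1*). *Cdk4*, which did not pass in any fit, changed sign with quantile normalization (0.01), without DKSFM replicate 3 (0.01) and without KSFM-Ca2+ replicate 3 (0.02), and ran from -0.04 to 0.02 when 1 library was left out. With the combined libraries alone *Ccnb1* came to -0.62 and *Cdk1* to -0.78. Of all tested genes 1651 were 2-fold higher, and 1032 with a filter on every library, which tests fewer genes. Of the list genes 3 were 2-fold lower, and 1 with a pseudocount of 1 or with the combined libraries alone. The replicate numbers did not pair the libraries: the correlations of same-numbered deviations ran from -0.0204 to 0.0227, and 2 of 6 libraries correlated best with their own number. The replicate block gave 4459 lower and 4275 higher genes, in place of 4606 and 4419, and the counts among the 10 stayed at 7 and 2. Over all tested genes, leaving out 1 library gave 4247 to 4363 lower and 4114 to 4273 higher. The other scalings gave 4520 to 4840 lower and 4155 to 4512 higher. Coverage was rounded to 0.1, which limits the precision of low values such as those of *E2f2* and *Cdk14*. Neither was tested with the filter on every library, nor *Cdk14* with the combined libraries alone.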
